A study of Sus scrofa with 4 samples.

Results

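Collagens are the main structural proteins of connective tissue, and each is a trimer of chains encoded by genes named COL, a type number, A and a chain number. The collagen chains described here are the 40 genes, of 29263 in the deposited count tables, whose symbol has that form: 38 carry it in the tables, and 2 are listed there by identifier and were named through a gene name table (COL4A1, ENSSSCG00000044700, and COL24A1, ENSSSCG00000031738). The RNA came from pig lung. All animals carried the LGR5-H2B-GFP knock-in, so a fluorescent histone reports transcription of LGR5, a receptor that amplifies Wnt signalling. Sorting gave brightly fluorescent cells (GFP-HI) and cells lacking the signal (GFP-NEG), with 2 biological replicates of each. No wild-type lung is among the 4 libraries, and the labels give neither the age of the animals nor the antibody gates of these libraries. The protocol covers adult and fetal lung, and the name of the authors' comparison table holds both the word adult and a code that no source used here explains, so the age is not settled.

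The fibril-forming collagens (types I, II, III, V, XI, XXIV and XXVII) assemble into rope-like fibrils. In most tissues these fibrils are built on types I and III with type V in their core, and in cartilage on type II with type XI. FACIT collagens attach to the surface of fibrils, type VI forms beaded filaments around cells, and type IV builds the sheet of the basement membrane. In lung, fibroblasts make most of the interstitial collagen, and the hyaline cartilage of the airway wall holds the cartilage types.

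Depth was 24200550 and 24689986 for the GFP-HI libraries but 6292253 and 7045652 counts for GFP-NEG, so depth and group cannot be told apart. One count was worth 0.0453 to 0.155 CPM (counts scaled to a common library size with edgeR's TMM factors). LGR5, which checks the labels, had a level of 149 ± 4.63 CPM among GFP-HI libraries against 1.16 ± 0.555 CPM among GFP-NEG libraries (SD, n = 2 in each group). Of 12 fibroblast markers that are not collagens (among them PDGFRA, DCN and LUM), 11 were higher in GFP-HI, beside 8.35% of all genes tested. The summed level of the 12 was 32404 and 41558 CPM in GFP-HI against 9033 and 2005 CPM in GFP-NEG replicates 1 and 2. FN1, the marker not called, held 8018 and 6436 CPM of these sums in GFP-HI and 4537 and 738 CPM in GFP-NEG. RNA of these markers was thus present in both fractions. None of these 12 markers was at 0 in any group. In such bulk samples fewer cells of a type and less RNA per cell cannot be told apart.

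Collagen transcripts split into opposite directions. Chains of types I, III, V, VI, XII, XIV, XV, XVI and XXI, of the minor fibrillar types XXIV and XXVII, of types XIII and XXIII, and the type IV chains COL4A1, COL4A2, COL4A5 and COL4A6 had positive fold changes in GFP-HI, whereas the chains of the cartilage types II, IX and XI, with COL8A1 and COL19A1, were lower there. Of the 39 chains that passed the filter on low counts, edgeR's quasi-likelihood test called 16 higher and 7 lower in GFP-HI (threshold of 0.05 on p-values adjusted over all 19682 genes tested). Of all genes tested, 8.35% were called higher and 27.6% lower, 36.0% in either direction. With 2 libraries a group, these p-values measure a spread between libraries, which may be technical. That spread was taken from the trend over genes of similar level, not from each chain's own replicates. All adjusted p-values below are from edgeR unless another source is named. The median log2 fold change was 1.49 over the chains and -0.25 over all genes tested. The GFP-HI and GFP-NEG libraries did not overlap for 22 chains that were higher and 9 that were lower, against 27.7% and 42.0% of all genes tested.

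The number of chains called higher depended on the library left out and was lowest without GFP-NEG replicate 2. The number of all genes called higher was lowest in that fit too, so the drop was not particular to collagens. The number of chains called lower also changed with the library left out. The median over the chains was 2.49 without GFP-NEG replicate 1 and 0.85 without GFP-NEG replicate 2.

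**Figure D1:**
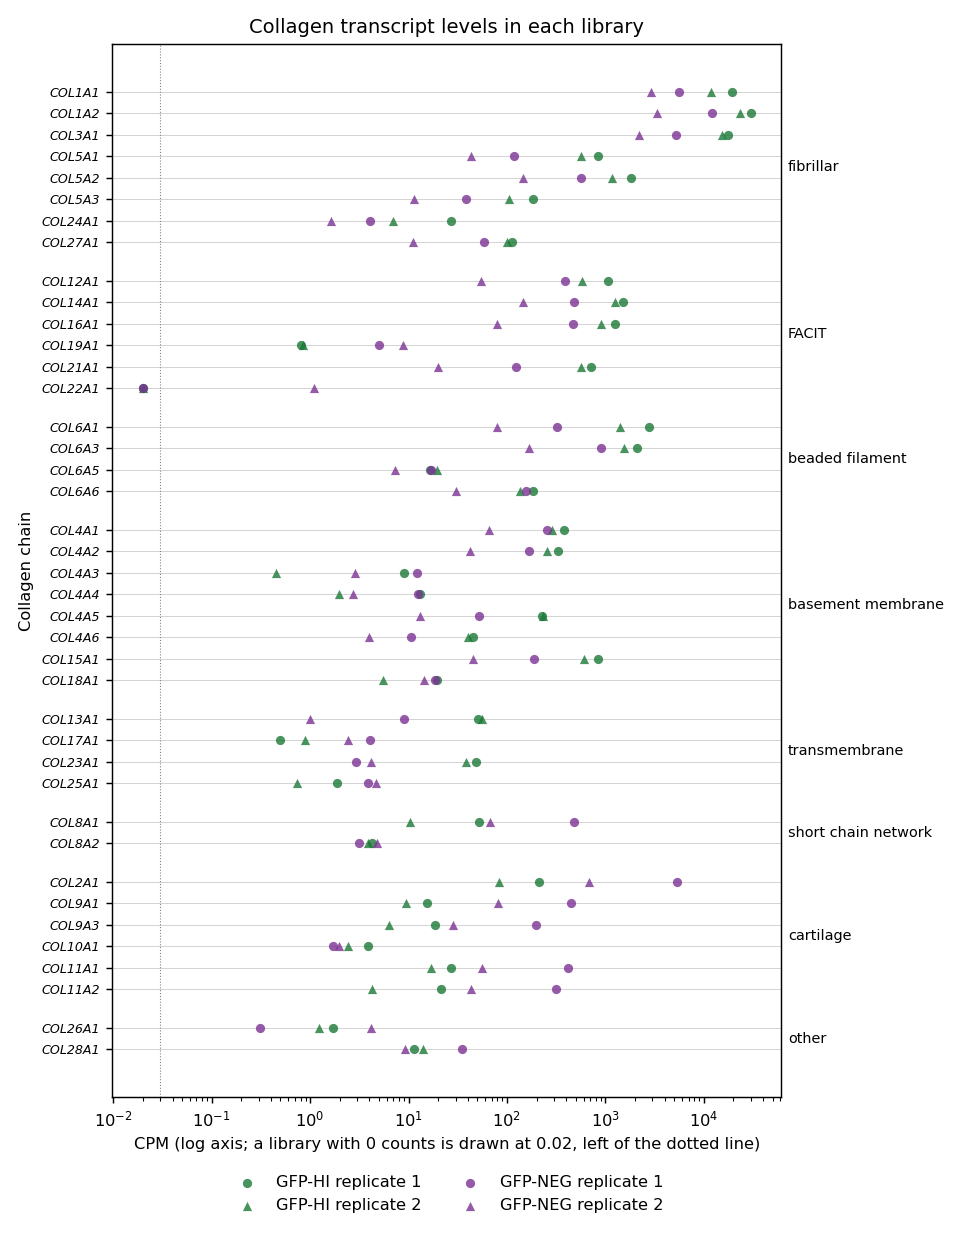
Level of each of the 40 collagen chains in each of the 4 libraries, as CPM on a log axis, grouped by class. Green symbols are GFP-HI and purple symbols GFP-NEG, circles are replicate 1 and triangles replicate 2; the green symbols lie to the right of the purple ones for all 8 fibrillar chains and to the left for 5 of 6 cartilage chains.

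Replicates differed most within GFP-NEG. GFP-NEG replicate 1 was above GFP-NEG replicate 2 for 33 of the 39 tested chains, with a median ratio of 3.85, and GFP-HI replicate 1 was above GFP-HI replicate 2 for 33 chains, with a median ratio of 1.366. Both the interstitial and the cartilage types were higher in GFP-NEG replicate 1, as were the fibroblast markers above. The part of these markers in the collagen differences was not tested.

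As a share of all counts, collagens took 7.50% of the counts of GFP-HI replicate 1 (95% exact binomial interval 7.49% to 7.52%) and 4.98% of GFP-HI replicate 2 (4.97% to 4.99%). In GFP-NEG the share was 3.54% in replicate 1 (3.53% to 3.56%) and 1.35% in replicate 2 (1.34% to 1.36%). These intervals cover counting error only. Both GFP-HI shares were above both GFP-NEG shares. The make-up of the collagen counts, which does not depend on the scaling of the libraries, differed too: cartilage types made up 0.360% and 0.202% of the collagen counts in GFP-HI against 19.3% and 8.54% in GFP-NEG. Fibrillar types outside cartilage made up 85.5% and 86.7% in GFP-HI against 68.8% and 83.0% in GFP-NEG.

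**Figure D2:**
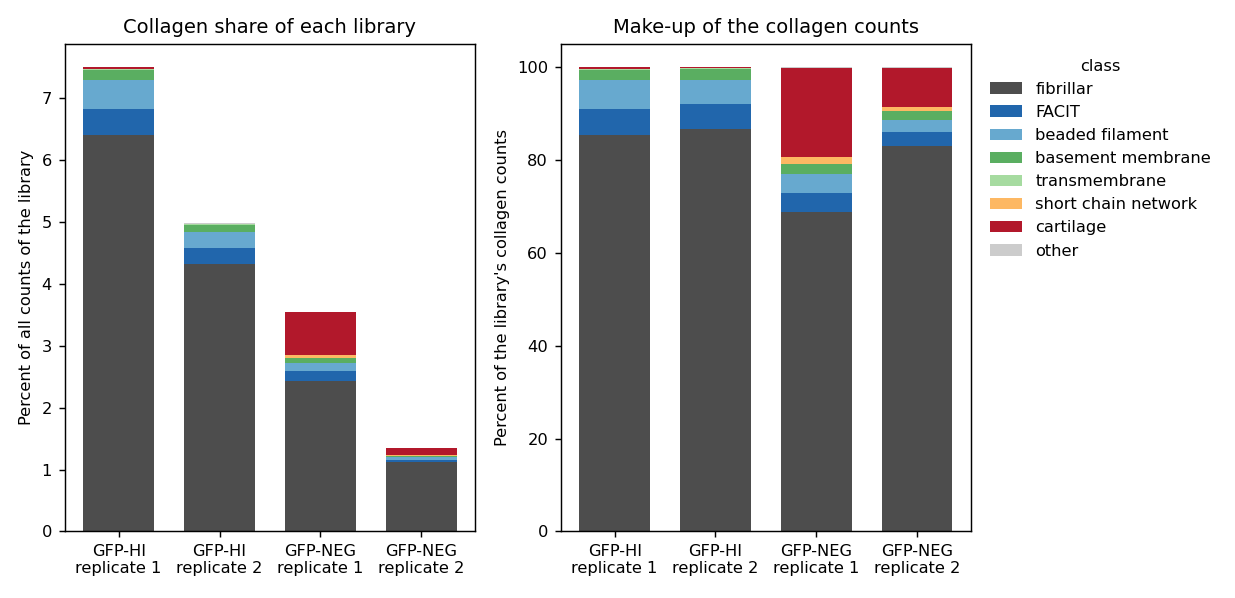
Collagen counts by class in each of the 4 libraries, as a percent of all counts (left) and of the library's collagen counts (right), stacked by class. The cartilage types (red) are a thin band in GFP-HI and make up 19.3% and 8.54% of the collagen counts in the GFP-NEG libraries.

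All 8 fibrillar chains outside cartilage had positive fold changes, with a median log2 fold change of 2.11, and both GFP-HI libraries were above both GFP-NEG libraries for each. 5 of the 8 passed the threshold. COL1A1, COL1A2 and COL3A1, the chains of types I and III that form the bulk of interstitial fibrils, were the 3 that did not in edgeR.

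COL1A1 was at 19484 and 11907 CPM in GFP-HI and 5644 and 2899 CPM in GFP-NEG. The change on the log2 scale was 1.88 ± 1.53 (SE; adjusted p of 0.36). COL1A2, its partner in the type I trimer, was at 30097 and 23559 CPM against 12186 and 3326 CPM, a change of 1.79 ± 1.76 (adjusted p of 0.46). The groups did not overlap for either chain, but the standard errors were close to the size of the changes. The spread behind these errors came from the trend over genes of similar level, not from the replicates of these chains. COL3A1, the chain of type III, was at 17777 and 15439 CPM against 5188 and 2218 CPM, a change of 2.16 ± 1.55 (adjusted p of 0.29). In the authors' deposited table the adjusted p-values of COL1A1, COL1A2 and COL3A1 are 0.0035, 0.016 and 7.5e-04, so that these calls depend on the test. Together these 3 genes took most collagen counts of each library; COL1A2 alone held 36.6% and 38.7% of them in GFP-HI against 35.2% and 31.9% in GFP-NEG.

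The type V chains, which set the diameter of type I fibrils, were all called higher. COL5A1 was at 842 and 567 CPM in GFP-HI and 118 and 43.2 CPM in GFP-NEG, the steepest change of the fibrillar chains (log2 fold change 3.13 ± 0.76, adjusted p of 2.5e-04). COL5A3, a chain of a rarer type V trimer, was at 186 and 104.9 CPM against 38.3 and 11.3 CPM (2.55 ± 0.57, adjusted p of 1.1e-04). COL5A2 was at 1805 and 1163 CPM against 568 and 147 CPM (2.05 ± 0.86), with an adjusted p of 0.049. That call was lost under 5 settings that kept all libraries, and when GFP-HI replicate 1, GFP-HI replicate 2 or GFP-NEG replicate 2 was left out (adjusted p of 0.12, 0.091 and 0.56).

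COL27A1, a minor fibrillar chain, was at 111 and 101 CPM in GFP-HI and 58.4 and 11.07 CPM in GFP-NEG. Its log2 fold change was 1.62 ± 0.54 (adjusted p of 0.0100), and 0.059 is the adjusted p of the authors' deposited table. COL24A1, the other minor fibrillar chain, was at 27.0 and 6.94 CPM against 4.04 and 1.64 CPM (2.60 ± 0.73, adjusted p of 0.0017), with GFP-HI replicates that differed more than those of COL27A1. Without GFP-NEG replicate 1 the median over the fibrillar chains was 3.35, and without GFP-NEG replicate 2 it was 1.54. In those fits the log2 fold changes were 2.49 and 1.44 for COL1A1, 3.06 and 1.10 for COL1A2, 2.96 and 1.64 for COL3A1, 4.08 and 2.54 for COL5A1, 3.39 and 1.35 for COL5A2, 3.74 and 1.88 for COL5A3, 3.31 and 0.83 for COL27A1, and 3.41 and 2.03 for COL24A1. COL24A1 was also at 1.41 without GFP-HI replicate 1 and at 3.33 without GFP-HI replicate 2. All 8 stayed positive in the 4 fits that left out a library.

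**Figure D3:**
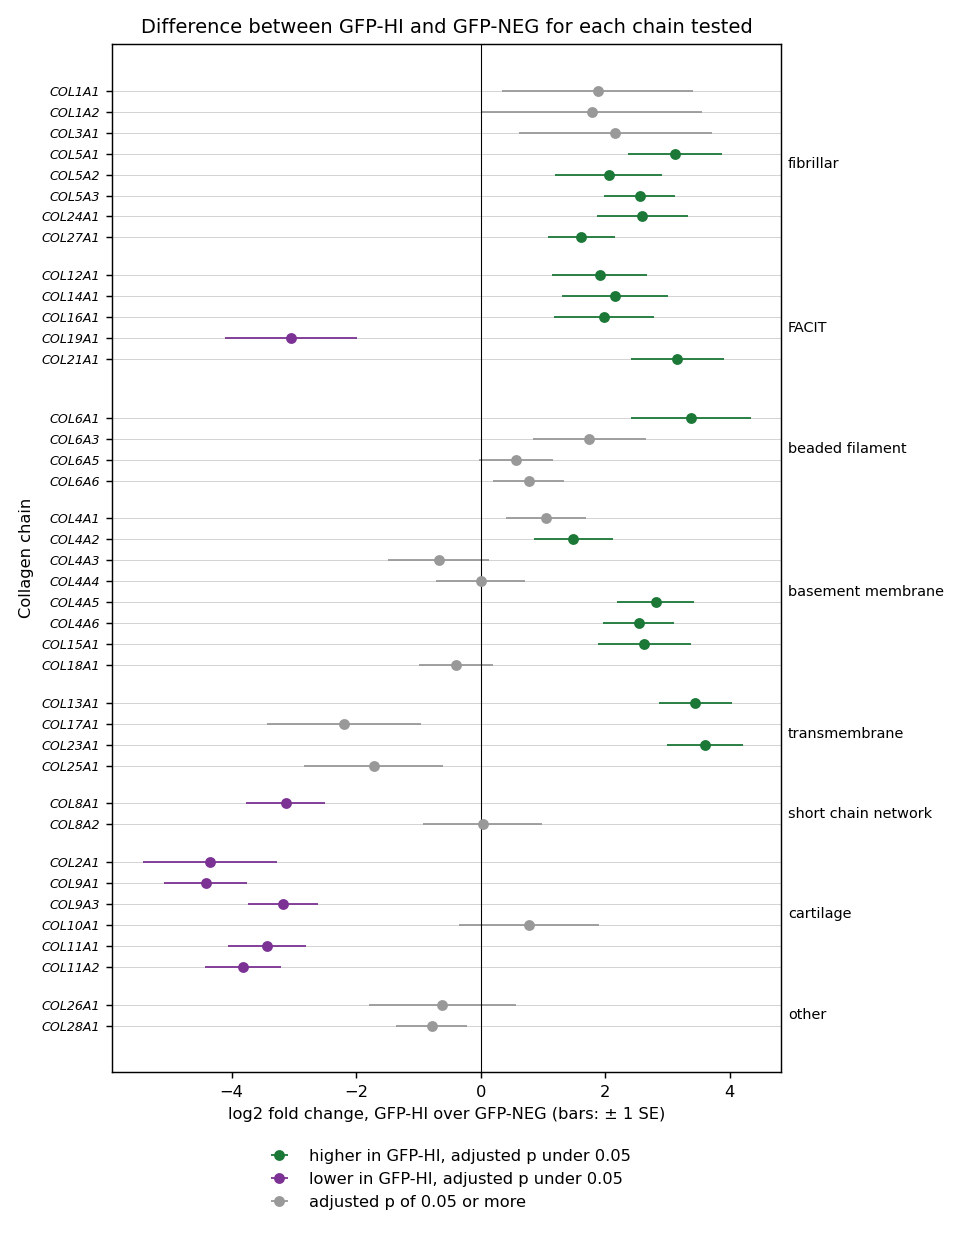
Log2 fold change of GFP-HI over GFP-NEG for the 39 tested chains, by class, with bars of 1 SE; colour gives the call at an adjusted p of 0.05 (edgeR). Fibrillar chains lie right of 0 throughout, and 5 of 6 cartilage chains lie at -3.17 or below.

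Of the 6 FACIT chains outside cartilage, 4 rose, 1 fell and COL22A1 was too low to test. COL14A1 was at 1525 and 1258 CPM in GFP-HI and 479 and 144 CPM in GFP-NEG (log2 fold change 2.16 ± 0.85, adjusted p of 0.034). COL16A1 was at 1252 and 896 CPM against 465 and 78.5 CPM (1.98 ± 0.80, adjusted p of 0.040). COL12A1, which like COL14A1 bridges type I fibrils, was at 1075 and 574 CPM against 385 and 54.5 CPM (1.91 ± 0.76, adjusted p of 0.036). The 2 groups were apart for each of these, yet none kept its call when any 1 of GFP-HI replicate 1, GFP-HI replicate 2 or GFP-NEG replicate 2 was left out. COL21A1, a short FACIT, changed most: 722 and 565 CPM against 124 and 19.8 CPM (3.16 ± 0.75, adjusted p of 1.8e-04).

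COL19A1 went the other way at a low level, where GFP-HI gave 18 and 17 counts against 32 and 80 for GFP-NEG although GFP-HI was the deeper group. Type XIX is a rare collagen of basement membrane zones. Its log2 fold change was -3.04 ± 1.06 (adjusted p of 0.014), and the call was lost without any single library other than GFP-NEG replicate 1. COL22A1, a chain of tissue junctions, had 10 counts in GFP-NEG replicate 2 and 0 in the other libraries, where the limit that a count of 0 allows is 0.136, 0.149 and 0.466 CPM. Leaving out GFP-NEG replicate 1 or GFP-NEG replicate 2 gave log2 fold changes of 3.32 and 1.501 for COL14A1, 3.83 and 1.17 for COL16A1, 3.97 and 1.06 for COL12A1, and 5.07 and 2.34 for COL21A1.

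Type VI forms beaded filaments that link cells to the fibrillar matrix. COL6A1 was at 2768 and 1421 CPM in GFP-HI and 324 and 78.4 CPM in GFP-NEG, a change of 3.38 ± 0.96 on the log2 scale (adjusted p of 0.0020). COL6A3, which joins it in the common type VI trimer, was at 2089 and 1529 CPM against 909 and 169 CPM, a change of 1.75 ± 0.90 on the log2 scale that did not pass (adjusted p of 0.12). The groups did not overlap for either chain. With the replicate number as a block, COL6A3 passed the threshold (log2 fold change 2.19, adjusted p of 0.027), as it does in the authors' deposited table (adjusted p of 0.035). Without GFP-NEG replicate 1 or GFP-NEG replicate 2 the log2 fold change was 4.79 and 2.66 for COL6A1, and 3.47 and 0.96 for COL6A3.

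The alternative chains COL6A5 and COL6A6, which can take the place of COL6A3 in the trimer, did not pass the threshold. COL6A6 was at 184 and 135 CPM in GFP-HI and 157 and 30.5 CPM in GFP-NEG (0.77 ± 0.57, adjusted p of 0.31), and COL6A5 at 16.4 and 19.6 CPM against 17.1 and 7.34 CPM (0.56 ± 0.59, adjusted p of 0.50). GFP-NEG replicate 1 lay within the GFP-HI range for both. When GFP-NEG replicate 1 was left out, COL6A6 was called higher (2.44, adjusted p of 0.021), and COL6A5 was at 1.34 and not called (adjusted p of 0.20). Leaving out GFP-NEG replicate 2 instead put COL6A6 at -0.011 and COL6A5 at 0.035.

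The basement membrane chains did not move as 1 group. Of 8 chains, the 6 of type IV and the associated types XV and XVIII, 4 rose, none fell and 4 did not pass. The clearest changes were in COL4A5 and COL4A6, which form a trimer found in selected basement membranes such as those around smooth muscle. COL4A5 was at 225 and 233 CPM in GFP-HI and 52.3 and 13.2 CPM in GFP-NEG (2.81 ± 0.62, adjusted p of 8.0e-05), and COL4A6 at 44.7 and 39.8 CPM against 10.7 and 3.95 CPM (2.54 ± 0.57, adjusted p of 1.2e-04). The GFP-HI replicates of both were close together, and the groups were well apart.

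COL4A1 and COL4A2 make the type IV network present in nearly all basement membranes, including those of vessels. COL4A2 was at 333 and 256 CPM in GFP-HI and 168 and 42.1 CPM in GFP-NEG (1.49 ± 0.63), and its adjusted p of 0.049998 was lost under most alternatives. COL4A1 was at 377 and 287 CPM against 256 and 65.4 CPM (1.05 ± 0.65, adjusted p of 0.21). GFP-NEG replicate 1 was close to the lower GFP-HI library for COL4A1. Of 9 endothelial markers in the tables, 8 were lower in GFP-HI, beside 27.6% of all genes tested. The summed levels of the 9 markers were 217 and 215 CPM in GFP-HI and 1418 and 586 CPM in GFP-NEG, with no marker at 0 in a group. The part of endothelial RNA in the levels of COL4A1 and COL4A2 was not tested.

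COL4A3 and COL4A4, chains of the alveolar and glomerular basement membrane, were low and uneven. COL4A3 was at 8.93 and 0.446 CPM in GFP-HI and 12.3 and 2.85 CPM in GFP-NEG, and COL4A4 at 13.0 and 1.98 CPM against 12.4 and 2.74 CPM. For both chains replicate 1 was above replicate 2 in each fraction, and the fractions overlapped. COL4A3 was called lower when GFP-HI replicate 1 was left out (-3.95, adjusted p of 0.041). Of 9 epithelial markers in the tables, from a list of 10, none was higher and 2 were lower in GFP-HI (CDH1 and SFTPB). Of all genes tested, 8.35% were called higher and 27.6% lower. The summed level of the epithelial markers was 367 and 359 CPM for GFP-HI and 794 and 196 CPM for GFP-NEG, with none at 0 in a group. The part of epithelial RNA in the levels of COL4A3 and COL4A4 was not tested.

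COL15A1, a multiplexin that bridges basement membrane and fibrils, was at 836 and 612 CPM in GFP-HI and 188 and 45.4 CPM in GFP-NEG (2.63 ± 0.75, adjusted p of 0.0021). COL18A1, the related chain whose end fragment is endostatin, was at 19.3 and 5.55 CPM against 18.5 and 14.4 CPM (-0.40 ± 0.60, adjusted p of 0.65) with overlapping groups. Over the 8 chains the median was 1.27, and 2.62 without GFP-NEG replicate 1 or 0.56 without GFP-NEG replicate 2. In these 2 fits COL4A5 was at 4.17 and 2.09, COL4A6 at 3.47 and 1.94, COL4A2 at 2.86 and 0.77, COL15A1 at 4.05 and 1.90, and COL4A1 at 2.39 and 0.34. COL4A1 was called higher in the first of them (adjusted p of 0.038).

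The transmembrane collagens COL13A1 and COL23A1 gave the chains' largest positive fold changes. COL13A1, found at cell adhesion sites, was at 51.2 and 55.8 CPM in GFP-HI and 9.01 and 0.987 CPM in GFP-NEG (3.45 ± 0.59, adjusted p of 2.9e-07). COL23A1 was at 49.0 and 38.02 CPM against 2.95 and 4.17 CPM (3.60 ± 0.61, adjusted p of 2.4e-07). Both were called in each of the 4 fits that left out a library, the only chains of the 16 with that record. COL23A1 ranged from 3.43 to 3.88 in them, and COL13A1 reached 5.80 without GFP-NEG replicate 1 and 2.53 without GFP-NEG replicate 2. COL17A1, the hemidesmosome collagen of basal epithelium, gave 11 and 18 counts for GFP-HI against 26 and 22 for GFP-NEG (-2.20 ± 1.23, adjusted p of 0.16). COL25A1 had 41 and 15 counts against 25 and 43 (-1.72 ± 1.11, adjusted p of 0.24). Neither of these passed the threshold, though the groups were apart on the CPM scale.

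**Figure D4:**
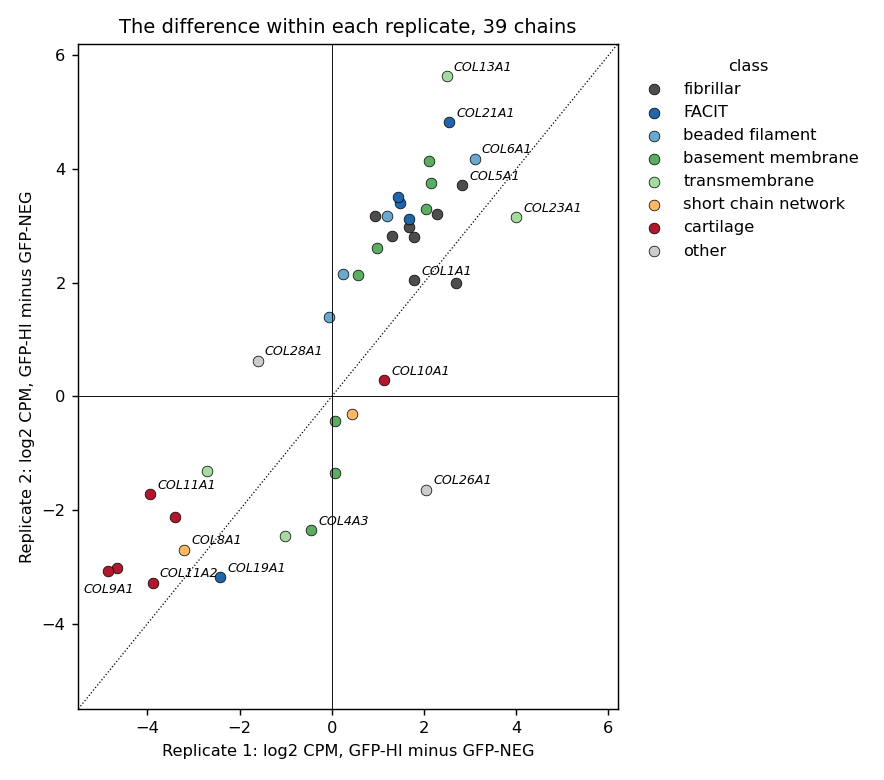
Difference in log2 CPM (GFP-HI minus GFP-NEG) within replicate 1 (horizontal) and within replicate 2 (vertical) for the 39 tested chains, coloured by class, with the dotted line of equal differences. Most chains with positive differences lie above the line, and the 5 cartilage chains at the lower left lie above it too, with smaller falls in replicate 2.

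Chains of the cartilage types showed the opposite direction. Of the 6 chains, 5 were lower in GFP-HI by at least 3.17 on the log2 scale. COL2A1, the fibril-forming chain of hyaline cartilage, was at 210 and 83.9 CPM in GFP-HI and 5313 and 681 CPM in GFP-NEG. Its log2 fold change was -4.35 ± 1.08 (adjusted p of 3.4e-04). It held 15.3% and 6.53% of the collagen counts in GFP-NEG and 0.256% and 0.138% in GFP-HI. GFP-NEG replicate 1 was far above all others, and GFP-NEG replicate 2 was still above both GFP-HI libraries.

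Types IX and XI assemble with type II. COL9A1 was at 15.4 and 9.42 CPM in GFP-HI and 449 and 80.5 CPM in GFP-NEG (-4.41 ± 0.67, adjusted p of 5.8e-09), the largest fall of any collagen chain. COL9A3 was at 18.4 and 6.35 CPM against 196 and 28.2 CPM (-3.17 ± 0.56, adjusted p of 9.1e-07). COL11A1 was at 27.0 and 16.9 CPM against 419 and 56.0 CPM (-3.43 ± 0.63, adjusted p of 2.1e-06). COL11A2 was at 21.2 and 4.26 CPM against 315 and 42.8 CPM (-3.81 ± 0.61, adjusted p of 4.4e-08). The order of the 4 libraries was the same for COL2A1 and these 4 chains: GFP-NEG replicate 1, GFP-NEG replicate 2, GFP-HI replicate 1 and GFP-HI replicate 2.

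COL10A1, the collagen of hypertrophic growth plate cartilage, did not share the pattern. It was low in all libraries, at 3.90 and 2.43 CPM in GFP-HI and 1.71 and 1.97 CPM in GFP-NEG (0.78 ± 1.13, adjusted p of 0.63).

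The size of the cartilage fall rested on GFP-NEG replicate 1. The median over the 6 chains was -3.62. It became -1.498 when GFP-NEG replicate 1 was left out, and -4.48 when GFP-NEG replicate 2 was. Without GFP-NEG replicate 1, COL2A1 was at -2.16, COL9A1 at -2.64 and COL11A2 at -1.70, and these 3 kept their call, while COL11A1 at -1.30 and COL9A3 at -1.14 lost it. Without GFP-NEG replicate 2 the values were -5.21 for COL2A1 and COL9A1, -4.67 for COL11A2, -4.29 for COL11A1 and -4.02 for COL9A3. GFP-HI replicates also mattered: COL11A2 was at -5.30 without GFP-HI replicate 1 and -3.05 without GFP-HI replicate 2, where COL2A1 (-3.80), COL9A3 (-2.57) and COL8A1 lost their calls. Within replicate 1 and within replicate 2 alike, each of the 5 chains was lower in GFP-HI, with differences of -4.85 to -3.40 in replicate 1 and -3.28 to -1.72 in replicate 2 on the log2 CPM scale.

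Markers of chondrocytes that are not collagens, from a list of 12, moved with these chains. Of the 10 tested, 8 were lower in GFP-HI, beside 27.6% of all genes tested. Among the 8 were SOX9, ACAN, COMP, MATN1 and MATN3. MATN4 was higher, and HAPLN1 did not pass. No marker was at 0 in both libraries of a group. Their summed level was 621 and 406 CPM in GFP-HI and 3026 and 332 CPM in GFP-NEG, so that the sums of the groups overlap. MATN4 (391 and 169 CPM) and HAPLN1 (97.9 and 158 CPM) held most of the sum in GFP-HI. The part of chondrocyte RNA in the cartilage collagen levels was not tested.

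COL8A1, a short network-forming chain of vessels and other tissues, was also lower in GFP-HI. It was at 52.0 and 10.3 CPM in GFP-HI and 479 and 67.4 CPM in GFP-NEG (-3.13 ± 0.64, adjusted p of 2.3e-05), in the same order of libraries as COL2A1. It was not called when GFP-NEG replicate 1 (-1.06) or GFP-HI replicate 2 (-2.36) was left out. Leaving out GFP-NEG replicate 2 gave -3.98, and leaving out GFP-HI replicate 1 gave -4.65. COL8A2, the other chain of type VIII, was at 4.26 and 3.87 CPM in GFP-HI and 3.11 and 4.82 CPM in GFP-NEG (0.03 ± 0.95, adjusted p of 0.99). COL28A1, a collagen of peripheral nerve, was at 11.5 and 14.1 CPM against 35.2 and 9.10 CPM, and COL26A1 was at or below 4.17 CPM in each library. Neither passed the threshold, and the groups overlapped for both.

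Pairs of chains, most of them partners in a trimer, were compared through the ratio of their counts in each library. The ratio itself carries the unequal lengths of the 2 transcripts, so only its difference between libraries is read. The COL4A1 to COL4A2 ratio was 0.18 and 0.16 in GFP-HI against 0.61 and 0.64 in GFP-NEG on the log2 scale, so that replicates lay within 0.03 of each other and the groups were 0.43 to 0.47 apart within replicates. COL4A1 and COL4A2 share a promoter region in mammals and are neighbours in the RefSeq annotation of Sscrofa11.1. The COL6A1 to COL6A3 ratio was 0.41 and -0.11 in GFP-HI against -1.49 and -1.11 in GFP-NEG, and the COL5A1 to COL5A2 ratio was -1.10 and -1.04 against -2.26 and -1.77. COL1A1 to COL1A2 was -0.63 and -0.98 against -1.11 and -0.20, with no separation of the groups. Among cartilage chains, COL9A1 to COL9A3 was -0.25 and 0.57 in GFP-HI against 1.20 and 1.51 in GFP-NEG, and COL2A1 to COL11A1 was 2.96 and 2.31 against 3.67 and 3.60. The ratio of the type XI chains, COL11A1 to COL11A2, did not separate the groups, at 0.35 and 1.98 against 0.41 and 0.39. Nor did COL1A1 to COL3A1 or COL6A5 to COL6A6, which are not partners in a trimer. Of the 12 pairs, 8 separated the groups, among them COL4A3 to COL4A4, COL4A5 to COL4A6 and COL8A1 to COL8A2. The lowest counts in these pairs were 9, 36 and 20. For single genes, the groups did not overlap for 27.7% (higher) and 42.0% (lower) of all genes tested. The share among all pairs of genes was not computed. The ratios are given as a description and were not tested.

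**Figure D5:**
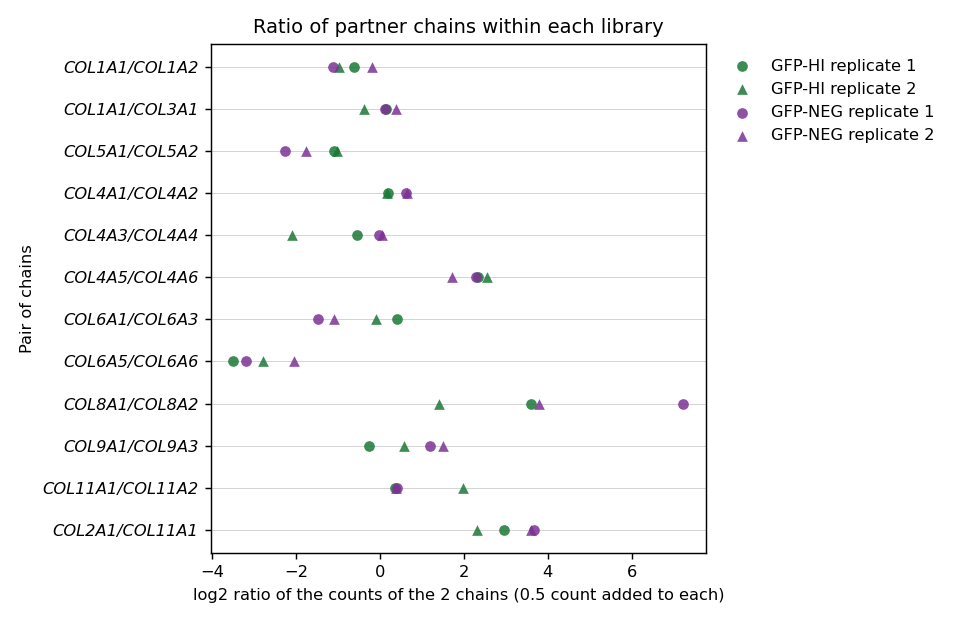
Log2 ratio of the counts of 2 chains within each library for 12 pairs of collagen genes; green is GFP-HI, purple is GFP-NEG, circles are replicate 1 and triangles replicate 2. The COL4A1 to COL4A2, COL5A1 to COL5A2 and COL6A1 to COL6A3 ratios separate the groups, and the COL1A1 to COL1A2 and COL11A1 to COL11A2 ratios do not.

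In that annotation 5 pairs of collagen genes lie next to each other with no protein-coding gene between them. The log2 fold changes of the neighbours were 1.05 and 1.49 for COL4A1 and COL4A2, 2.54 and 2.81 for COL4A6 and COL4A5, 2.16 and 2.05 for COL3A1 and COL5A2, 0.00 and -0.68 for COL4A4 and COL4A3, and -3.04 and -4.41 for COL19A1 and COL9A1. The last pair joins a FACIT of low level with a cartilage chain, both lower in GFP-HI.

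Genes that modify and crosslink collagen were mostly higher in GFP-HI in sign. From a list of 32, 30 were in the tables and tested. Of these 30, 26 had positive fold changes, 12 were higher and 2 lower past the threshold, and the median was 1.42. Among all 19682 genes tested, 8713 had positive fold changes, 8.35% were called higher and 27.6% lower, and the median was -0.25. With the replicate block 17 of the 30 were higher and 2 lower, the 5 gained being SERPINH1, P4HA3, LOXL2, PLOD1 and ADAMTS14. Of all 19682 genes tested, 1707 were higher and 4793 lower with that block. ADAMTS2, which removes the amino-terminal propeptide of types I to III, was at 678 and 532 CPM in GFP-HI and 62.7 and 16.0 CPM in GFP-NEG (3.94 ± 0.76, adjusted p of 6.8e-06). LOX, which starts the crosslinking of fibrils, was at 1520 and 797 CPM against 232 and 38.6 CPM (3.10 ± 0.83, adjusted p of 0.0011). SERPINH1, the chaperone of procollagen, was at 1188 and 419 CPM against 443 and 71.4 CPM and did not pass (1.65 ± 0.76, adjusted p of 0.077), but did with the replicate block (1.99, adjusted p of 0.022). The 2 that were lower, TLL1 and TLL2, are proteases related to BMP1 and had at most 58 counts in a library. Of 10 collagen receptors tested, DDR2 (2.25 ± 0.55, adjusted p of 3.1e-04) and MRC2 (1.52 ± 0.53, adjusted p of 0.014) were higher, beside 8.35% of all genes tested. OSCAR, a receptor of myeloid cells, was lower (-3.67 ± 0.67, adjusted p of 1.7e-06), beside 27.6% of all genes tested. The other 7 did not pass, among them the integrin chains ITGA1, ITGA2, ITGA10, ITGA11 and ITGB1.

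Markers of other cell types that transcribe collagens stood as follows in the libraries. Of 10 smooth muscle and pericyte markers, 2 were higher and 3 lower in GFP-HI, beside 8.35% and 27.6% of all genes tested. The summed levels of these markers were 2316 and 2904 CPM in GFP-HI against 2820 and 418 CPM in GFP-NEG. With the replicate block 3 were higher and 2 lower: NOTCH3 was gained (adjusted p of 0.041) and DES lost (adjusted p of 0.075). Of 4 tested basal cell markers, 3 were lower, and the summed level of the 5 on the list was 10.7 and 9.47 CPM against 87.3 and 47.1 CPM. Of Schwann cell markers, CDH19 had 0 counts in every library, and SOX10 was at 6.12 and 16.0 CPM in GFP-HI and 4.66 and 4.39 CPM in GFP-NEG. The part of these markers in the levels of COL17A1 and COL28A1 was not tested.

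In the authors' deposited table, which lists 39 of the 40 chains, 18 have an adjusted p under 0.05 with a higher and 7 with a lower level in the GFP-positive fraction, as do 8.20% and 11.2% of its 16250 genes. DESeq2 run on the same counts repeated the authors' fold changes and adjusted p-values for these 39 chains, so it is no separate support. It called the same 18 and 7 chains, against 5.60% and 24.9% of 24178 genes. Of these, 14 of the higher and all 7 of the lower chains were also called by edgeR. The 4 chains called higher in that table alone were COL1A1, COL1A2, COL3A1 and COL6A3, and the 2 called by edgeR alone were COL4A2 and COL27A1.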

How the data were processed

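RNA-seq counts of 4 libraries were analysed: 2 GFP-HI and 2 GFP-NEG, grouped by their titles. Per the submitters' processing notes, the authors counted reads per gene with featureCounts (Subread 1.5.2) and used DESeq2 1.37.6. The aligner, strand setting and genome build are not given in the sources used here, so overlapping genes are uncertain. The authors deposited raw counts for 29263 genes and, per the file headers, a table of 16250 genes with log2 fold changes and p-values that they had adjusted. The count columns there equal the single tables. 4 further columns of normalized values were not used: the values under 2 of their headings follow the counts of a library of the other group.

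Identifiers were given symbols from a gene name table (844 matched, 834 renamed). Counts were tested with edgeR 4.0.16 (quasi-likelihood F test, TMM scaling, filterByExpr, R 4.3.3), with no term beside group. 19682 genes (99.8% of counts) passed the filter. Benjamini-Hochberg adjustment was used, with 0.05 as threshold. Standard errors were taken as the size of the log2 fold change over the root of F. The genewise spread was moderated fully to the trend. Within-replicate differences use log2 CPM with a prior count of 2, and partner ratios use counts with 0.5 added. The procedure was tested on simulated data. Levels per length were planned but not computed, as no transcript lengths were used here. The labels do not say whether biological replicates are separate animals. Those 4 headings name pig 1 and pig 2, and the titles share replicate numbers, so the replicate number was also fitted as a block. The deviations of same-numbered libraries were only weakly correlated (r of 0.160 across genes).

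Classes and lists, the members and the rule for named genes (every chain, with values per library for chains called or at 10 CPM or more in a group and for chains of the same class) were chosen with earlier results of these data known. No gene in the counts carried the name COL6A2, COL6A4, COL7A1, COL9A2 or COL20A1, so these chains were not analysed here. Alternatives were other scalings, filters, DESeq2 1.42.0, the block, GFP-HI counts thinned to the GFP-NEG depth, and leaving out each library. Some Schwann cell markers are not reported here.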

Additional observations from a re-analysis of the deposited data

How the results depend on the processing

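The 7 chains called lower kept that number under RLE, upper-quartile and library-size scaling, TMM without the collagen genes, both other filters, DESeq2 and the replicate block, and numbered 8 with GFP-HI thinned, where COL17A1 was also called. The number called higher was 11 to 18 in those settings and 10 with GFP-HI thinned to the GFP-NEG depth. With the replicate block 17 chains were higher and 7 lower, and COL6A3 was the only chain whose call changed. The block gave 1707 higher and 4793 lower among all 19682 genes tested. When 1 library was left out (the lone library is assumed to vary like the other group), 2 to 19 chains were higher and 3 to 7 lower, and the median over the chains was 0.85 to 2.49. The 38 chains named in the files, a set added after seeing the data, gave 15 higher and 7 lower. COL4A2 lost its call under 8 of the 9 alternatives that kept all libraries, and kept it with the block. COL5A2 and COL16A1 lost it under 5, COL12A1 under 3, COL14A1 and COL27A1 under 2. The cause was not tested.

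Over all genes tested, higher genes numbered 1083 with upper-quartile scaling, 888 with library size only and 1088 with thinning, and lower genes 3541 with thinning. With a library left out, 216 to 1635 genes were higher and 1575 to 4999 lower. Scaling by library size moved the median of all genes to -0.68, and it ranged from -0.59 to 0.032 with a library left out. No called chain changed direction in any alternative. Of the chains not called, COL4A4 turned negative under RLE (-0.025), upper quartile (-0.23), library size (-0.27), the CPM filter (-0.030), DESeq2 (-0.0077), the block (-0.18) and thinning (-0.014), and ranged from -1.82 to 1.51 with a library left out. COL8A2 turned negative under RLE (-0.016), upper quartile (-0.33), library size (-0.43), the CPM filter (-0.013) and thinning (-0.27), and ranged from -0.20 to 0.35 with a library left out. COL26A1 was at 0.059 with the block. With a library left out, COL26A1 ranged from -1.44 to 2.19, COL28A1 from -1.50 to 0.54, the median of these 2 chains from -0.61 to 0.34, COL4A3 from -3.95 to 0.77 (0.30 without GFP-HI replicate 2), COL18A1 from -1.43 to 0.32 and COL6A6 from -0.011 to 2.44. The shallow GFP-NEG libraries limit chains with few counts, such as COL19A1, COL22A1 and COL26A1.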
